A study of Homo sapiens with 8 samples.

Results

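Accessible chromatin was described around 8 genes of the EGFR family, namely the 3 receptors EGFR, ERBB2 and ERBB3 and the 5 ligands TGFA, AREG, EREG, BTC and HBEGF. The members are the accessible regions that overlap a window around each gene on build hg19. For the receptors the windows were 55000000 to 55330000 on chromosome 7 (EGFR), 37830000 to 37900000 on chromosome 17 (ERBB2) and 56460000 to 56510000 on chromosome 12 (ERBB3). For the ligands they were 70660000 to 70800000 on chromosome 2 (TGFA) and 139700000 to 139740000 on chromosome 5 (HBEGF), and on chromosome 4 they were 75220000 to 75265000 (EREG), 75295000 to 75335000 (AREG) and 75660000 to 75730000 (BTC). These windows held 70 of the 80588 regions found in the series, and 355 of 308814 peaks overlapped them. A region that crosses a window's edge can also include peaks that lie outside the window. Gene starts and ends were placed from general knowledge of hg19, since no annotation of that build was used here, and "over the start" or "within" a gene rests on that. The assay was ATAC-seq, in which a transposase cuts and tags DNA wherever chromatin is open.

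Both cell lines came from oral squamous cell carcinoma, and each stands alone for its class, KOSC-2 as the radiosensitive and HSC-3 as the radioresistant line by their labels. The groups were KOSC-2 given 8 Gy, KOSC-2 given 0 Gy, HSC-3 given 8 Gy and HSC-3 given 0 Gy, with 2 libraries each, and all cells were frozen 24 hours after the exposure. All were cultured in DMEM with fetal bovine serum, penicillin and streptomycin. Line and radiosensitivity class cannot be told apart with 1 line per class, and nothing states that libraries of the same group were cultured apart. The p-values therefore cover the spread between libraries, which may be technical. Marker genes of oral epithelium were not analysed here.

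EGFR, ERBB2 and ERBB3 are receptor tyrosine kinases of the cell surface that signal as pairs. EGFR binds ligands directly, ERBB2 has no known ligand of its own and serves as a partner, and ERBB3 has a weak kinase and signals through its partner. TGFA, AREG, EREG, BTC and HBEGF are made as membrane-anchored precursors that proteases release, and all of them bind EGFR. EGFR is often highly expressed in squamous carcinomas of the head and neck, and the family is widely studied in the response of such tumours to radiation. The genes for EREG, AREG, BTC and the further ligand EPGN are neighbours in a ligand cluster on chromosome 4.

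The promoters of TGFA, EREG, BTC and AREG are shown because the first 3 carried the start regions whose rank separated the lines, whereas no region was called at the start of AREG. They run from 250 bases before to 50 bases after the gene start and are RefSeq sequence of build GRCh38.p14, which is not the build of the peaks, so they are not placed under the peaks by position. Capitals mark the TATA box (TATAAA), the GC box (GGGCGG) and the CCAAT box (CCAAT), on either strand. The AP-1 motif (TGANTCA) was searched as well and is in none of these 4. No matches shown share a base.
TGFA, chr2:70553777-70554076, minus strand: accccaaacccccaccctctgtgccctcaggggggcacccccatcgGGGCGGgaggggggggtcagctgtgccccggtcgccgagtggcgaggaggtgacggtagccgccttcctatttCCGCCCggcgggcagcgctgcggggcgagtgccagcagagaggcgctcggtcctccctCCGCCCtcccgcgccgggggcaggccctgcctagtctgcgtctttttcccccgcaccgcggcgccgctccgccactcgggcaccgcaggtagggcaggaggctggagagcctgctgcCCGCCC
EREG, chr4:74364895-74365194, plus strand: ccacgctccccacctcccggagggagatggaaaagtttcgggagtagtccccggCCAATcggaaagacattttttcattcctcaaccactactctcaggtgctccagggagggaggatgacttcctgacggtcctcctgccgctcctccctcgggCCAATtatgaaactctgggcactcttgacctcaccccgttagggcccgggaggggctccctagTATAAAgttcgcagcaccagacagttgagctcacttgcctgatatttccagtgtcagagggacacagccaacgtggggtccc
BTC, chr4:74794474-74794773, minus strand: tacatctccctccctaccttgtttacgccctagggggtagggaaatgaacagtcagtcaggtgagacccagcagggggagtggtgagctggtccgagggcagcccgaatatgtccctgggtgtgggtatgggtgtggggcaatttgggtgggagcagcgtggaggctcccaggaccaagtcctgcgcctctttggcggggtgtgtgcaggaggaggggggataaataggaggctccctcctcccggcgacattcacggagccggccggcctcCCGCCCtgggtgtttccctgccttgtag
AREG, chr4:74444886-74445185, plus strand: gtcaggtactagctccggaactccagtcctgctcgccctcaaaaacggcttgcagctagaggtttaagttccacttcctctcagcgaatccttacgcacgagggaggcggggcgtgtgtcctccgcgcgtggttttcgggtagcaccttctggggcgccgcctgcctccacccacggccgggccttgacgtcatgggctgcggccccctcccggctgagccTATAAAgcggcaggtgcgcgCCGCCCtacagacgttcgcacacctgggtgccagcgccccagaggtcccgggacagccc
The TGFA promoter held 4 GC boxes, no TATA box and 75.3% G and C, against a median of 58.7% over the 35116 promoters of the table. The EREG promoter held 1 TATA box, 2 CCAAT boxes, no GC box and 57.7% G and C. BTC had 1 GC box and 63.0% G and C, and AREG had 1 TATA box, 1 GC box and 66.3% G and C. The promoters of EGFR and HBEGF, not shown, were as rich in G and C as that of TGFA, though the lines overlapped at their start regions. EGFR had 3 GC boxes, no TATA box and 75.3% G and C, and HBEGF had 5 GC boxes, no TATA box and 75.0%. Among all promoters of the table, 11.5% held the TATA box, 45.0% the GC box, 34.6% the CCAAT box and 7.71% the AP-1 motif. A match is a description of these letters and no measured site. Of the 8 members, 7 were found in the table and ERBB3 was not.

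Each library came as its own peak list, of 22504 to 51693 peaks on chromosomes 1 to 22 and X. The genome-wide background was 24.3 to 64.8 reads per 10 kb in KOSC-2 and 20.2 to 42.6 in HSC-3. This takes each read to span 300 bp, a length assumed here. No peak with fewer than 5 to 9 reads at its summit was called, which sets what was detectable. The enrichment of shared regions over background was lowest in HSC-3 8 Gy replicate 1 (21.9), KOSC-2 0 Gy replicate 1 (25.7) and HSC-3 0 Gy replicate 2 (34.7), against 49.6 to 67.3 in the other libraries. HSC-3 8 Gy replicate 1 and HSC-3 0 Gy replicate 2 also had the shortest lists. The line and dose results were also computed without these 3 libraries, and values that moved are given beside the results.

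Of the 70 regions of the family, 22 were called in all 8 libraries (31.4%), where 15.9% of all regions were. A further 15 were called in 1 library (21.4%, against 31.9% of all regions), 6 of them in KOSC-2 0 Gy replicate 1. The regions were called 184 times in KOSC-2 libraries and 152 times in HSC-3 libraries, out of 174543 calls of all regions in KOSC-2 and 127761 in HSC-3, so the share of calls in the family was not larger in KOSC-2. Both lines called 49 of the 70. At least 1 KOSC-2 and no HSC-3 library called 16 (22.9%, against 32.0% of all regions), and at least 1 HSC-3 and no KOSC-2 library called 5 (7.14%, against 16.2%). Most regions were thus seen in both lines. The strict rule of 4 libraries of a line and none of the other found 1 region for KOSC-2 (2.07% of all regions meet it) and 0 for HSC-3 (0.300% meet it). That count for KOSC-2 was 2 without KOSC-2 8 Gy replicate 2 or without HSC-3 0 Gy replicate 1, and 0 with lists of equal length.

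**Figure D1:**
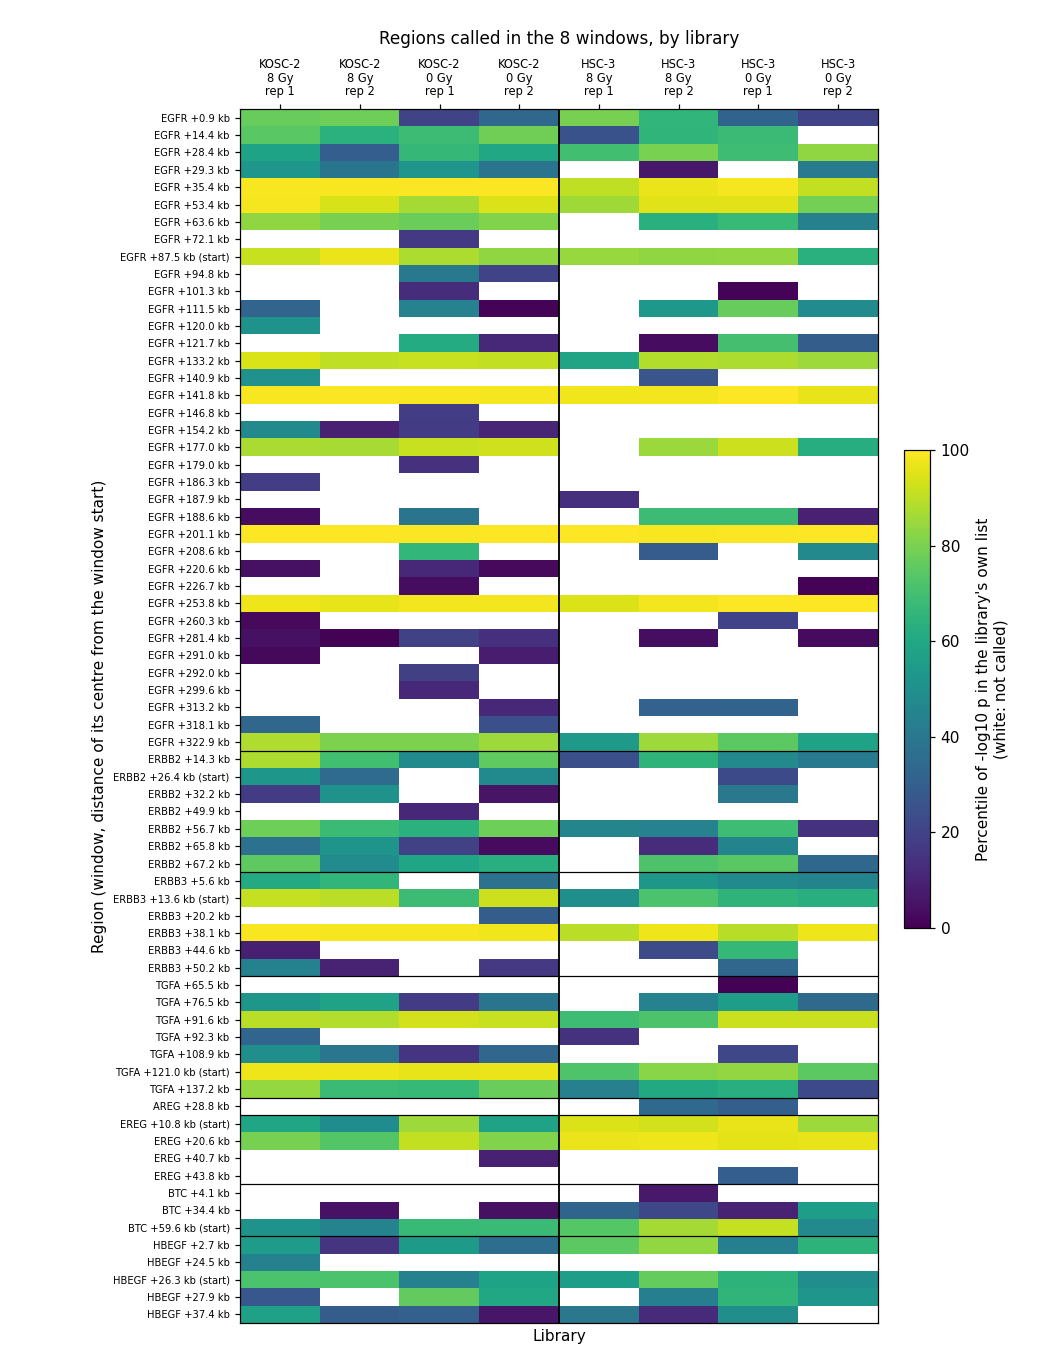
Each row is 1 of the 70 regions in the 8 windows, labelled by the distance of its centre from the window start in kb, and each column is a library. Colour gives the percentile of the region's strongest −log10 p in the library's own list, and white cells were not called. The 22 regions called in all 8 libraries form the filled rows, 10 of them in the EGFR window, and the AREG window is a single row with 2 filled cells.

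For the 22 regions called everywhere, strength was compared as a rank. The authors' −log10 p at the strongest summit was ranked within each library among the 12827 regions that all 8 libraries called, and 100 is the strongest. The other 48 regions have no rank. Lines were compared by an exact two-sided permutation test of 4 against 4 libraries, which cannot give a p below 0.0286, with Benjamini-Hochberg adjustment over all 12827 regions. No region of the genome passed after adjustment (0 of 12827, 0% called, smallest adjusted p 0.150), and 2441 had an unadjusted p under 0.05, 6 of them among the 22. What follows is therefore given as values and as whether the lines overlap. Ranks did not overlap, with KOSC-2 above HSC-3, at 3 of the 22 (9.52% of all ranked regions) and, with KOSC-2 below HSC-3, at 3 of the 22 (9.51%). The 6 lay in EGFR (1), TGFA (2), EREG (2) and BTC (1). Without KOSC-2 0 Gy replicate 1 the first count was 6, without HSC-3 0 Gy replicate 2 it was 5, and without HSC-3 0 Gy replicate 1 the second was 5. Leaving out the 3 low-enrichment libraries, a choice made with the values known, left 3 KOSC-2 and 2 HSC-3 libraries. The counts were then 9 and 6, of 30 family regions that all libraries left had called. Fewer libraries make the rule easier to meet, and the share of all regions was not computed in that setting. The 6 regions named here stayed without overlap, which follows from how they were chosen but for small shifts in rank. The median rank difference, KOSC-2 minus HSC-3, was 5.27 over the 22 and 0.520 over all ranked regions.

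The receptor EGFR, whose window is the widest at 330 kb, held 37 of the 70 regions. That is 11.2 per 100 kb, against 12.5 for HBEGF and 12 for ERBB3, and 10 of the 37 (27.0%) were called in every library. The strongest region of the window, on chromosome 7 from 55200245 to 55201873 within EGFR, ranked at 99.0 and 99.1 in KOSC-2 8 Gy, 98.8 and 99.2 in KOSC-2 0 Gy, 99.5 and 97.4 in HSC-3 8 Gy, and 98.6 and 99.8 in HSC-3 0 Gy. Its summit pileup, the number of fragments stacked at the peak, was 179 to 222 in KOSC-2 and 102 to 163 in HSC-3, at the unequal depths given above. Over the shared regions, the median summit pileup was also higher in KOSC-2, at 49 to 61 against 21 to 42 in HSC-3. This region ranked near the top in all 8 libraries. The region from 55141506 to 55142176, also within EGFR, ranked at 95.2 to 98.1 in KOSC-2 and 93.9 to 99.6 in HSC-3. These ranks overlapped between the lines.

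The region over the EGFR start (55086269 to 55088685, 2417 bp wide) was called everywhere but did not rank as high. It stood at 69.0 and 90.8 in KOSC-2 8 Gy, 65.3 and 51.7 in KOSC-2 0 Gy, 74.5 and 51.2 in HSC-3 8 Gy, and 52.7 and 45.8 in HSC-3 0 Gy. The lines overlapped, at 69.2 ± 16.2 in KOSC-2 on average and 56.1 ± 12.7 in HSC-3 (SD of 4 libraries a line, as throughout; exact permutation p = 0.286).

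The region that separated the lines in this window lies before the EGFR start, from 55034930 to 55035925. It ranked at 95.9 and 97.1 in KOSC-2 8 Gy, 97.7 and 97.6 in KOSC-2 0 Gy, 84.1 and 90.6 in HSC-3 8 Gy, and 95.1 and 84.0 in HSC-3 0 Gy. All KOSC-2 libraries lay above all HSC-3 libraries, although the closest pair differed by little. The means were 97.1 ± 0.83 in KOSC-2 and 88.5 ± 5.38 in HSC-3, a difference of 8.64 (exact permutation p = 0.0286, adjusted p = 0.150). The HSC-3 libraries at 84.1 and 84.0 are its low-enrichment libraries, and without the 3 libraries of that kind the difference was 2.22. Ranked by the authors' fold in place of −log10 p, the difference was 5.20 and the lines overlapped.

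The region called in all KOSC-2 and no HSC-3 libraries lies within EGFR, from 55153872 to 55154534. Its pileups were 37 and 20 in KOSC-2 8 Gy and 32 and 22 in KOSC-2 0 Gy. It was a weak peak in most of these lists, at percentiles of 47.7 and 9.15 in the KOSC-2 8 Gy lists and 17.6 and 10.6 in the KOSC-2 0 Gy lists. In HSC-3 it was not called at this depth.

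For ERBB2, the partner receptor, no region over the start placed here, or within the gene from there, was called in every library. The RefSeq promoter of ERBB2 may belong to another start further upstream, which was not placed on hg19. Whether a region credited below to a neighbour lies over that start is not known here. The region over the start placed here (37856029 to 37856840 on chromosome 17) had pileups of 28 and 19 in KOSC-2 8 Gy. It was called in KOSC-2 0 Gy only in replicate 2 with 19, and in HSC-3 only in 0 Gy replicate 1 with 16. So 3 KOSC-2 and 1 HSC-3 libraries called it. The 2 regions of the window that all libraries called lie over the starts of neighbours, PGAP3 (37843923 to 37844639) and MIEN1 (37886350 to 37887080), and 2 more lie within the adapter gene GRB7. The PGAP3 region, the strongest by mean rank, stood at 57.1 and 30.9 in KOSC-2 8 Gy, 9.77 and 35.1 in KOSC-2 0 Gy, 10.3 and 19.2 in HSC-3 8 Gy, and 7.71 and 23.5 in HSC-3 0 Gy. The lines overlapped there, and at the MIEN1 region, which ranked at 22.7 to 39.7 in KOSC-2 and 5.78 to 25.5 in HSC-3.

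ERBB3 had a start region in every library (56472736 to 56474390 on chromosome 12). It ranked at 68.0 and 69.2 in KOSC-2 8 Gy, 28.8 and 74.8 in KOSC-2 0 Gy, 29.6 and 28.3 in HSC-3 8 Gy, and 21.2 and 45.0 in HSC-3 0 Gy. All KOSC-2 libraries except 0 Gy replicate 1, 1 of the low-enrichment libraries, lay above HSC-3. Means were 60.2 ± 21.2 in KOSC-2 and 31.0 ± 9.99 in HSC-3, a difference of 29.2 (exact permutation p = 0.0857). The strongest region of the window lies over the start of the neighbour PA2G4, which encodes a protein known for binding ERBB3 (56497715 to 56498509). It stood at 93.1 to 96.7 in KOSC-2 and 67.0 to 95.5 in HSC-3, with overlap.

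Among the ligands, TGFA had the clearest separation in favour of KOSC-2. Its start region (70780386 to 70781636 on chromosome 2), at the gene whose GC-rich promoter is shown above, ranked at 89.6 and 91.7 in KOSC-2 8 Gy, 89.6 and 90.5 in KOSC-2 0 Gy, 56.6 and 48.7 in HSC-3 8 Gy, and 53.0 and 59.9 in HSC-3 0 Gy. No library of either line came near the other line's range. Means were 90.4 ± 0.999 in KOSC-2 and 54.6 ± 4.78 in HSC-3, a difference of 35.8 (exact permutation p = 0.0286, adjusted p = 0.150). Summit pileups were 116 and 102 in KOSC-2 8 Gy, 92 and 104 in KOSC-2 0 Gy, 32 and 44 in HSC-3 8 Gy, and 50 and 27 in HSC-3 0 Gy. The lines also did not overlap when regions were ranked by fold (difference 20.6) or by pileup (29.5, a ranking chosen after seeing the data). They did not overlap with only peaks of −log10 q of at least 5 either. Settings that leave out libraries say little here, since lines already apart stay apart but for small shifts in rank. Without the 3 low-enrichment libraries the difference was 23.6.

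A second TGFA region, before the gene start (70796731 to 70797601), ranked at 46.7 and 28.7 in KOSC-2 8 Gy, 26.8 and 38.4 in KOSC-2 0 Gy, 23.7 and 15.6 in HSC-3 8 Gy, and 18.9 and 10.6 in HSC-3 0 Gy. KOSC-2 lay above HSC-3, by 17.9 on average (35.1 ± 9.22 in KOSC-2 and 17.2 ± 5.51 in HSC-3; exact permutation p = 0.0286, adjusted p = 0.150). By fold the difference was 22.3 but the lines overlapped. The third region that all libraries called, within TGFA, had overlapping lines and is described with dose.

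EREG, the epiregulin gene, went the other way at both of its shared regions. The start region (75230269 to 75231279 on chromosome 4) ranked at 9.76 and 11.9 in KOSC-2 8 Gy, 59.4 and 14.4 in KOSC-2 0 Gy, 90.9 and 78.4 in HSC-3 8 Gy, and 90.1 and 75.2 in HSC-3 0 Gy. Every HSC-3 library lay above every KOSC-2 library, and KOSC-2 0 Gy replicate 1 lay apart from the other KOSC-2 libraries. Means were 23.9 ± 23.8 in KOSC-2 and 83.6 ± 8.02 in HSC-3, a difference of −59.8 (exact permutation p = 0.0286, adjusted p = 0.150). Its pileups were 29 and 19 in KOSC-2 8 Gy, 55 and 23 in KOSC-2 0 Gy, 53 and 70 in HSC-3 8 Gy, and 88 and 38 in HSC-3 0 Gy.

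The region within EREG (75240062 to 75241134) ranked at 36.2 and 35.8 in KOSC-2 8 Gy, 73.5 and 46.2 in KOSC-2 0 Gy, 95.3 and 91.9 in HSC-3 8 Gy, and 87.3 and 94.0 in HSC-3 0 Gy. It again had no overlap, averaging 47.9 ± 17.7 in KOSC-2 and 92.2 ± 3.51 in HSC-3, a difference of −44.2 (exact permutation p = 0.0286, adjusted p = 0.150). These separations depended on the value ranked. By the authors' fold, which divides the pileup by the background around the peak, the differences were −12.8 at the start and −8.57 within EREG, and the lines overlapped at both. By pileup they were −69.1 and −52.9 without overlap.

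BTC, betacellulin, showed the same order at its start region (75718954 to 75720155 on chromosome 4). Ranks were 5.77 and 9.73 in KOSC-2 8 Gy, 27.3 and 24.7 in KOSC-2 0 Gy, 58.0 and 59.2 in HSC-3 8 Gy, and 72.7 and 29.4 in HSC-3 0 Gy. HSC-3 lay above KOSC-2, but HSC-3 0 Gy replicate 2 only just cleared the highest KOSC-2 library. Means were 16.9 ± 10.7 in KOSC-2 and 54.8 ± 18.2 in HSC-3, a difference of −37.9 (exact permutation p = 0.0286, adjusted p = 0.150). By fold the difference was −0.345, with overlap, and by pileup it was −51.8 without overlap. A weaker region within BTC (75694071 to 75694812) was called in 2 KOSC-2 and 4 HSC-3 libraries, with pileups of 9 to 15.

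AREG, amphiregulin, had no region called at its start. How reads that map to more than 1 place were handled is not given, so a missing call need not mean closed chromatin. The AREG window held 1 region. That region (75323419 to 75324211, beyond the end of the gene) was called in no KOSC-2 library and in HSC-3 8 Gy replicate 2 and HSC-3 0 Gy replicate 1, with pileups of 16 and 18. AREG took 0 regions per 10000 called in KOSC-2 and 0.121 ± 0.139 in HSC-3, which overlapped (exact permutation p = 0.429, adjusted p = 0.746).

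HBEGF, heparin-binding EGF-like growth factor, had 5 regions, and 2 were called everywhere. The one of higher mean rank, over its start (139726019 to 139726597 on chromosome 5), ranked at 8.01 to 33.7 in KOSC-2 and 20.7 to 36.0 in HSC-3 and is described with dose. The other (139702249 to 139703091, beyond the end of the gene) ranked at 7.58 and 1.76 in KOSC-2 8 Gy, 14.1 and 4.57 in KOSC-2 0 Gy, 60.0 and 52.0 in HSC-3 8 Gy, and 6.14 and 47.2 in HSC-3 0 Gy. HSC-3 lay higher except in 0 Gy replicate 1, which fell inside the KOSC-2 range (difference −34.3, exact permutation p = 0.0857).

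**Figure D2:**
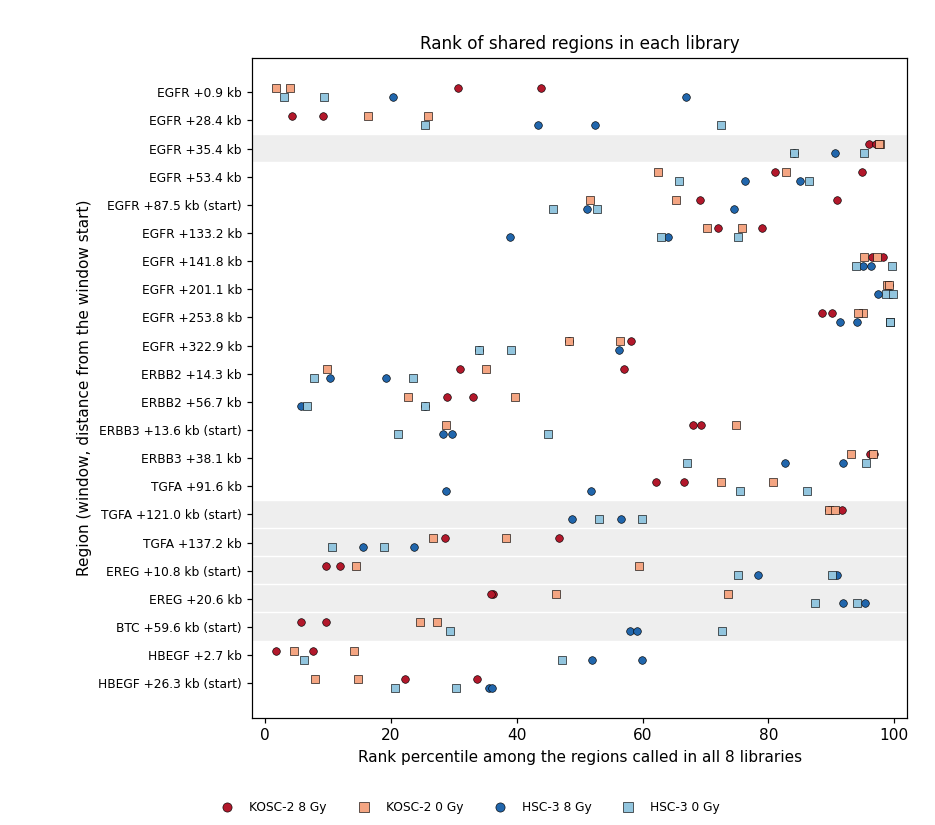
Rank percentile (x axis, 100 strongest) of the 22 regions called in all 8 libraries, with 1 point per library, coloured by line and shaped by dose. Shaded rows are the 6 regions where the lines do not overlap: KOSC-2 lies to the right at the EGFR region before the gene start and at 2 TGFA regions, and HSC-3 lies to the right at 2 EREG regions and the BTC start.

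Family genes outside the 8 windows were set beside these. ERBB4, the remaining receptor, had 14 regions, called 26 times in KOSC-2 and 0 times in HSC-3, and none in all 8 libraries. Of all regions, 32.0% were called in KOSC-2 and in no HSC-3 library. A region within ERBB4 (212273022 to 212273646 on chromosome 2) was called in all KOSC-2 and no HSC-3 libraries, as 2.07% of all regions were, with pileups of 38 and 33 in KOSC-2 8 Gy and 23 and 40 in KOSC-2 0 Gy. Regions of ERBB4 made up 1.47 ± 0.605 per 10000 regions called in KOSC-2 and 0 in HSC-3 (SD of 4 libraries a line, exact permutation p = 0.0286, adjusted p = 0.292). Of bins of 100 kb, 5.65% had KOSC-2 higher without overlap. The ERBB4 window is 1185 kb wide, so that share is not from stretches of like size. EPGN, next to EREG, had 1 region in every library, beyond the end of the gene (75186183 to 75186762), which ranked at 23.2 to 48.4 in KOSC-2 and 81.6 to 92.2 in HSC-3, without overlap by −log10 p (difference −50.3) or by fold (−19.2). EGF had 1 region in every library (110910122 to 110910708), which ranked at 34.6 to 86.0 in KOSC-2 and 80.0 to 86.4 in HSC-3, with overlap.

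Counting calls rather than strength, the share of each library's regions that fell in a window was tested together with all 21564 bins of 100 kb. BTC was the 1 window of the 8 without overlap, at 0.349 ± 0.140 regions per 10000 called in KOSC-2 and 0.748 ± 0.194 in HSC-3 (SD of 4 libraries a line, exact permutation p = 0.0286, adjusted p = 0.292). Among all bins, 5.65% had KOSC-2 above HSC-3 without overlap and 4.15% the reverse. No bin passed after adjustment, and 0 of the 8 windows did. The other members had p of 0.114 or more. EGFR had 5.41 ± 1.64 per 10000 in KOSC-2 and 5.85 ± 1.66 in HSC-3. The number of windows with HSC-3 higher was 3 without HSC-3 8 Gy replicate 2, 2 without KOSC-2 8 Gy replicate 1 and 0 with lists of equal length, and by bases covered EREG was added to BTC.

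The reads around the peaks also differed at EREG. Local background, the median background under the peaks of a window relative to the library's genome-wide level, was 2.65 and 2.74 in KOSC-2 8 Gy, 2.42 and 1.59 in KOSC-2 0 Gy, 3.93 and 11.9 in HSC-3 8 Gy, and 8.82 and 7.39 in HSC-3 0 Gy. All HSC-3 libraries lay above all KOSC-2 libraries (exact permutation p = 0.0286, adjusted p = 0.338 over the windows and 9759 bins). EREG was the 1 window without overlap, where 2.55% of bins had KOSC-2 above HSC-3 without overlap and 5.89% the reverse, and 0 bins passed after adjustment. By the lowest background in a window in place of the median, the lines overlapped at EREG and the count was 0. The lowest value of HSC-3 0 Gy replicate 1 (2.08) was at a peak that no other library called (75263515 to 75264075). It lay under the lowest of KOSC-2 8 Gy replicate 1 (2.15). Both measures rest on peaks that differ between libraries. By the median, the count was 2 without KOSC-2 0 Gy replicate 1, without HSC-3 8 Gy replicate 1 or without HSC-3 8 Gy replicate 2. EGFR stood at 4.73 to 7.70 in KOSC-2 and 5.23 to 10.4 in HSC-3, and the median bin at 2.97. In MACS2's usual setting the local background includes the peak's own reads within 10 kb, so a wide or strong peak raises it, and more copies of the locus and broader accessibility cannot be told apart by it. The part of local background in the EREG and BTC ranks was not tested beyond the rankings by fold and pileup above.

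**Figure D3:**
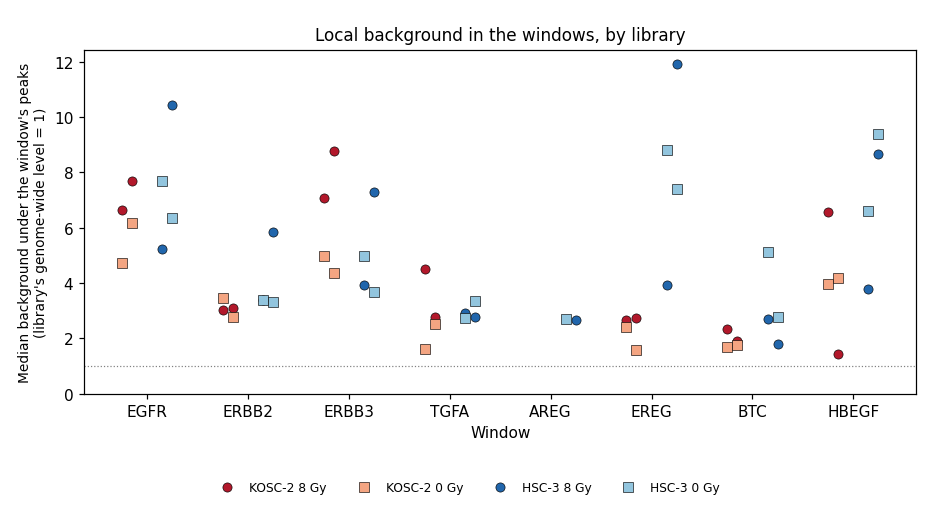
Median local background under the peaks of each window, relative to the library's genome-wide level (dotted line at 1), with 1 point per library, coloured by line and shaped by dose. EREG is the window where all HSC-3 points (3.93 to 11.9) lie above all KOSC-2 points (1.59 to 2.74); AREG has no KOSC-2 value because no KOSC-2 library called a peak there.

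Irradiation was compared within each line, 8 Gy against 0 Gy. By calls, 0 regions of the family were gained with 8 Gy (called in both 8 Gy and neither 0 Gy library) in KOSC-2 (3.51% of all regions) and 0 in HSC-3 (0.680%). In KOSC-2, 2 were lost (0.870% of all regions), both within EGFR, and in HSC-3 0 were lost (0.957%). The first lost region (55094538 to 55094964) had pileups of 28 and 18 in KOSC-2 0 Gy and was called in no other library. The second (55121277 to 55122034) had pileups of 59 and 25 in KOSC-2 0 Gy and was also called in 3 HSC-3 libraries, HSC-3 8 Gy replicate 2 among them. With 2 libraries a group, these counts moved when 1 was left out, by the construction of the rule. Lost regions in KOSC-2 were 5 without 8 Gy replicate 1, 5 without 0 Gy replicate 1 and 11 without 0 Gy replicate 2, and gained ones 7 without 8 Gy replicate 2 and 4 without 0 Gy replicate 2. In HSC-3, lost regions were 9 without 8 Gy replicate 2, 1 without 0 Gy replicate 1 and 8 without 0 Gy replicate 2, and gained ones 2 without 8 Gy replicate 1, 8 Gy replicate 2 or 0 Gy replicate 1. Without the 3 low-enrichment libraries, 0 were gained and 5 lost in KOSC-2, and 5 were gained and 9 lost in HSC-3, where 1 library a dose remained.

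By rank, 8 Gy lay above 0 Gy without overlap at 3 of the 22 regions in KOSC-2 (18.1% of all ranked regions) and below it at 7 (18.3%). In HSC-3 it lay above at 3 (17.0%) and below at 2 (16.3%). In both lines at once, 2 regions lay above (3.63%) and 2 below (3.86%). The exact test with dose exchanged within lines cannot give a p under 0.0556, which all 4 reached, and the smallest adjusted p over all ranked regions was 0.742, so none passed. Without HSC-3 0 Gy replicate 2, 5 regions lay below in both lines. Without the 3 low-enrichment libraries 5 lay above and 10 below, of 30 family regions that all libraries left had called. With 1 HSC-3 library a dose left, the rule is much easier to meet. The share of all regions was not computed in that setting, so these counts do not show a larger dose effect. The median difference, 8 Gy minus 0 Gy, was −0.192 over the 22 and 0.0361 over all ranked regions.

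At the far upstream edge of the EGFR window (55000537 to 55001323), ranks were 30.6 and 43.9 in KOSC-2 8 Gy, 1.73 and 3.94 in KOSC-2 0 Gy, 66.9 and 20.3 in HSC-3 8 Gy, and 2.99 and 9.44 in HSC-3 0 Gy. This region ranked low without irradiation in both lines and higher with it, by 35.9 on average (exact permutation p = 0.0556, adjusted p = 0.742). The size depended on the value ranked, at 60.6 by fold and 21.5 by pileup. The doses stayed without overlap in both lines by either value and with only peaks of −log10 q of at least 5. Leaving out libraries could hardly have brought overlap, so those settings say little here. At the HBEGF start, ranks were 22.2 and 33.7 in KOSC-2 8 Gy, 8.01 and 14.7 in KOSC-2 0 Gy, 35.5 and 36.0 in HSC-3 8 Gy, and 20.7 and 30.4 in HSC-3 0 Gy. That difference was 13.4 (exact permutation p = 0.0556, adjusted p = 0.742), and it was 8.75 by fold and 3.20, with overlap, by pileup.

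A region within EGFR and another within TGFA lay lower with 8 Gy. The EGFR region (55253287 to 55254326) ranked at 90.2 and 88.4 in KOSC-2 8 Gy, 95.0 and 94.3 in KOSC-2 0 Gy, 91.4 and 94.1 in HSC-3 8 Gy, and 99.3 and 99.3 in HSC-3 0 Gy, a difference of −5.96, which was −16.1 by fold, −3.92 by pileup and −2.84 without the 3 low-enrichment libraries. It stayed among the strongest regions at either dose. The TGFA region (70751165 to 70752042) ranked at 62.1 and 66.6 in KOSC-2 8 Gy, 80.6 and 72.4 in KOSC-2 0 Gy, 51.7 and 28.8 in HSC-3 8 Gy, and 75.5 and 86.1 in HSC-3 0 Gy, a difference of −26.3. For both, the exact permutation p was 0.0556 and the adjusted p 0.742, and the doses overlapped in at least 1 line when ranked by fold.

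**Figure D4:**
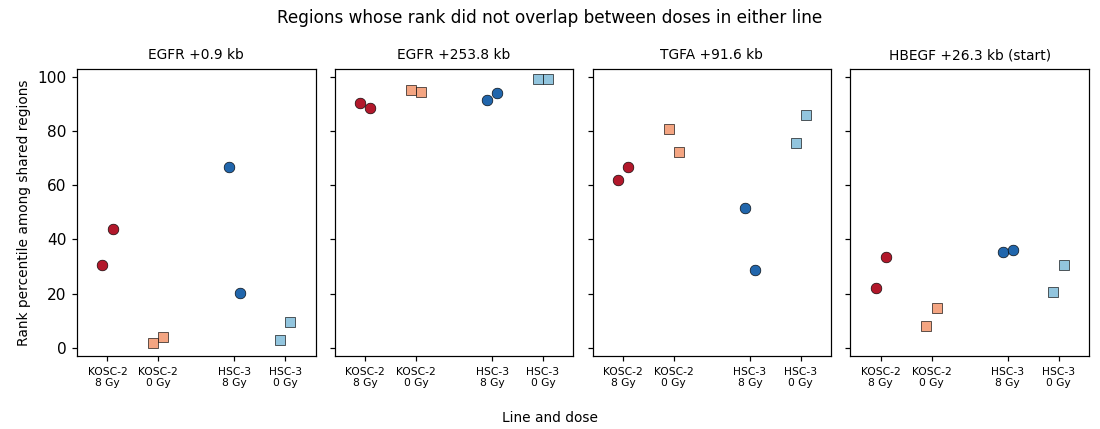
Rank percentile (y axis, 100 strongest) by line and dose, 1 point per library, for the 4 regions where the doses do not overlap in either line. The EGFR region at 0.9 kb and the HBEGF start lie higher at 8 Gy in both lines, and the EGFR region at 253.8 kb and the TGFA region at 91.6 kb lie lower.

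Regions called per window were set against dose as well. In none of the 8 windows (0) did the share of calls lie above, or below, without overlap in both lines, where 0.941% of bins lay above and 1.47% below. This count was 1 without KOSC-2 8 Gy replicate 2, KOSC-2 0 Gy replicate 1, HSC-3 8 Gy replicate 1 or HSC-3 0 Gy replicate 1, and 2 without the 3 low-enrichment libraries.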

How the data were processed

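ATAC-seq of 8 libraries (2 for each line and dose) was analysed from 1 deposited peak list per library. The build was hg19, and MACS2 2.2.6, Bowtie2 2.3.4.2, deepTools, FastQC 0.11.7 and SAMtools 1.9 were listed, per the submitters' processing notes, without settings; the sources used here do not give read shifting or duplicate handling. Each peak carries the authors' deposited integer score, the deposited fold (a ratio of summit pileup to local background), the deposited −log10 p and −log10 q, and a summit offset. These are relative to 1 library and were used only to describe, rank or filter within a list.

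Peaks of chromosomes 1 to 22 and X sharing at least 1 bp were merged into regions. Pileup and background were recovered from fold and −log10 p, within 0.0001 for all peaks. Lines were tested by exact permutation (70 assignments) and doses by exchange within lines (36 assignments), with Benjamini-Hochberg adjustment over all regions or bins at a threshold of 0.05. Regions named were the strongest of each window and those that were line-only, gained, lost or without overlap; further ones (gene starts, weaker regions, regions without overlap by dose) were chosen after their values were seen. The members and comparison genes were chosen with earlier results of these data known. Promoter sequence came from RefSeq. Alternatives were a −log10 q of at least 5, equal list lengths, 50% coverage, 3 of 4 calls, other ranked values, bases covered, the lowest background, leaving out each library, and a replicate block. Python 3.11.15, numpy 2.4.6, pandas 2.3.3 and scipy 1.17.1 were used, and the functions were tested on simulated lists. Precision is limited by list depth, and read totals are not used here.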

Additional observations from a re-analysis of the deposited data

Results flagged for a closer look

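Of 74 sets of 4 values (1 line, 1 region or window), 4 had a library far from the other 3, where chance gives about 1 in 20. At the EREG start, KOSC-2 0 Gy replicate 1 ranked at 59.4, against 9.76 to 14.4 in the rest of that line. At the ERBB3 start the same library ranked at 28.8, against 68.0 to 74.8 in the others. This library had the lowest enrichment of KOSC-2 (25.7) and the highest genome-wide background (64.8 reads per 10 kb), and their part in these ranks was not tested. At the PA2G4 start in the ERBB3 window, KOSC-2 0 Gy replicate 2 ranked at 93.1, against 96.2 to 96.7. In the ERBB2 window, the median local background of HSC-3 8 Gy replicate 2 was 5.85 times the library's genome-wide level, against 3.32 to 3.40 in the other HSC-3 libraries. These medians rest on the peaks each library called, which differ. At the PGAP3 and MIEN1 starts, which all libraries called, HSC-3 8 Gy replicate 2 was not above the range of the other HSC-3 libraries. Its other called regions lie within GRB7, where background was also high in the HSC-3 0 Gy libraries that called them.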

How the results depend on the processing

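Over all alternatives, 189 counts kept within 1.5 times their main value and 51 moved. Among the 189 are the counts of regions or windows passing after adjustment, which were 0 in every setting. By dose or with the replicate block these could not have been otherwise, since the smallest p there is above 0.05. All 150 values of single regions or windows kept their direction, but many could hardly have reversed. The regions had been chosen for lack of overlap, most settings only leave out libraries, and the replicate block gives the same difference. The BTC start by fold, at −0.345, barely kept its direction. With a −log10 q of at least 5, 1 region was lost with 8 Gy in HSC-3. With lists of equal length, 0 regions were KOSC-2-only, 2 were gained in KOSC-2, 3 were lost in HSC-3, and 0 windows had a higher share of calls in HSC-3. With 50% of a region covered, 2 were KOSC-2-only and 1 was lost in HSC-3, and with calls in 3 of 4 libraries 2 were KOSC-2-only. Ranked by fold, 1 region lay higher in KOSC-2 and 1 lower, both without overlap, and 0 lay lower with 8 Gy in both lines; ranked by pileup, 1 lay higher with 8 Gy in both lines. By bases covered, 2 windows lay higher in HSC-3, and by the lowest background in a window 0 did. Without the 3 libraries of lowest enrichment, chosen after seeing the data, 30 regions were called in all libraries left and 1 was HSC-3-only. Ranks then had no overlap at 9 of the 30 with KOSC-2 higher and at 6 with HSC-3 higher. HSC-3 lay higher in 2 windows by calls and 3 by background. In the same setting 5 regions were lost in KOSC-2, 5 were gained and 9 lost in HSC-3, 5 lay higher and 10 lower with 8 Gy in both lines by rank, and 2 windows had no overlap by dose. The causes were not tested, except that fewer libraries make each rule easier to meet.

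Leaving out each library in turn gave 1 to 2 KOSC-2-only and 0 to 0 HSC-3-only regions, 0 to 7 gained and 2 to 11 lost in KOSC-2, 0 to 2 gained and 0 to 9 lost in HSC-3, and 22 to 26 called in all libraries. Ranks without overlap numbered 3 to 6 (KOSC-2 higher), 3 to 5 (HSC-3 higher), 2 to 3 (8 Gy higher in both lines) and 2 to 5 (8 Gy lower). Windows with HSC-3 higher numbered 1 to 3 by calls and 1 to 2 by background, and windows without overlap by dose 0 to 1.

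The labels do not say whether replicate numbers pair libraries across groups. The difference between replicates 1 and 2 correlated at −0.0957 to 0.131 between groups, which cannot settle it. With the replicate block, 0 ranks, call shares or backgrounds passed after adjustment, as without it, in a design whose smallest p is 0.125. With 2 libraries a group, a dose effect cannot pass, and regions under 5 to 9 reads were not detectable.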
